A study of Mus musculus with 16 samples.

Results

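The genes described here are 10 components and outputs of the circadian clock, out of 18193 genes measured: Dbp and Tef, Per1, Per2, Per3 and Cry1, Nr1d1 and Nr1d2, and Arntl and Clock. They were taken by symbol, and the group was selected on the measured log2 intensity of Dbp, which had been seen to differ in these same arrays. The values of Dbp are therefore given as a description with no test, and those of the other 9 genes, listed for their function, were tested in a fit over all 18193 genes. The 10 symbols had 25 probe sets (groups of short probes against 1 transcript) annotated to 1 symbol alone, and the brightest of them on average led for each gene.

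The arrays measured RNA of C57BL/6 mouse airway epithelial cells grown with air above and medium below, a culture form in which the cells differentiate into a ciliated and secretory layer. The 4 groups of 4 cultures each were Mmp7-null (Mmp7-/-) scratched, Mmp7-null uninjured, wild-type scratched and wild-type uninjured, where scratched cultures received 3 scratches and all cultures had 24 hours without serum before harvest. Mmp7 encodes matrilysin, a secreted protease of mucosal epithelia, and the design asks how its loss and a scratch wound alter expression, separately and together. The time of day, the time since scratching, and which cultures shared an animal are not given in the sources used here, so p-values measure the spread between these cultures, which may be technical.

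The mammalian clock is a transcriptional loop in which Arntl (BMAL1) and Clock pair on E-boxes and drive the Per and Cry genes, whose proteins then repress that pair. A second loop runs through Nr1d1 and Nr1d2, which encode the nuclear receptors REV-ERBα and REV-ERBβ and repress Arntl through response elements in its promoter. Dbp and Tef are PAR-domain leucine zipper factors that carry the rhythm to output genes through D-boxes. In the airway, epithelial cells run this clock, and the secretory club cells are known for it in mouse lung.

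The promoter windows in RefSeq (GRCm38.p6, 250 bases before to 50 after a gene's start) held such letters for some of these genes, and the stretches are printed for 3 genes whose levels differed between groups below. Of the 10 genes, 9 had an entry, with 14 windows in all, and Per2 had none. Both strands were searched. The D-box, spelled TTATGTAA or TTACGTAA, was in 1.06% of 32851 windows of all genes and in that of Per3, which held 2 matches. Their first bases lie at -205 and -158 from the start, and both are in capitals in the 250 bases before it, chr4:151044666-151044915 on the minus strand.
Per3: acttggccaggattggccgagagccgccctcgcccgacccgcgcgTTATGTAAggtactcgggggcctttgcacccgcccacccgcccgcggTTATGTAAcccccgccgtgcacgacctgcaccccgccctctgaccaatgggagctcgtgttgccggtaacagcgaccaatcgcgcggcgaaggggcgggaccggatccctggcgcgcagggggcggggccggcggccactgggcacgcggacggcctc
The E-box, spelled CACGTG, was in 7.15% of windows and in those of 3 of the 9 genes, Tef, Per1 and Cry1. In Cry1 its first base lies at -60, in capitals in chr10:85185055-85185304 on the minus strand.
Cry1: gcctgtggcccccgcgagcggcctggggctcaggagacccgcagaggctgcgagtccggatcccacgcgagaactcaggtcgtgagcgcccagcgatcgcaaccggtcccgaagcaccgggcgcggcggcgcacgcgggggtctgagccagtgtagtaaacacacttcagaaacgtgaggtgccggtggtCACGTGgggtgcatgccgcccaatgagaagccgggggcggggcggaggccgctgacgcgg
The response element for REV-ERB and ROR receptors was searched in 1 spelling only. It is that of the 2 Arntl elements below, with the second to last base left free. It was in 20 of the 32851 windows (0.0609%). Because the spelling is that of Arntl itself, its matches there were given in advance. The share is not that of the response element in general. The 2 Arntl elements are in capitals in chr7:113207491-113207520 and chr7:113207527-113207556, both on the plus strand.
Arntl, upstream element: gattggtcggAAAGTAGGTTAgtggtgcga
Arntl, downstream element: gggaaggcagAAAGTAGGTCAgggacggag
The windows of Dbp, Nr1d1, Nr1d2 and Clock held none of these letters. A match describes letters and no binding was measured.

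The cultures carried the markers of their labelled tissue. All 5 epithelial markers listed (Cdh1 among them) and all 7 club and goblet markers lay above background. Of the latter, Muc5ac was close to it, at a mean log2 intensity of 2.86. By contrast, 0 of 3 endothelial markers and 2 of 5 leukocyte markers lay above background, and the pan-leukocyte gene Ptprc was at background. Signal from the leukocyte list was still not absent. Its summed linear intensity ran from 6413.51 in an uninjured to 11109.8 in a scratched Mmp7-null culture. That of the basal list ran from 4897.78 in a scratched to 6970.26 in an uninjured wild-type culture. Of 7 fibroblast and smooth muscle markers 4 lay above background, 3 of them close to it, and Acta2, the smooth muscle actin, at a mean log2 intensity of 7.35. The probe set of Mmp7 itself was at background in all groups, with mean log2 intensities of 2.31, 2.15, 2.17 and 2.16 in Mmp7-null scratched, Mmp7-null uninjured, wild-type scratched and wild-type uninjured cultures, so it does not check the genotype labels. Control transcripts added to the samples (spike-ins) divide the arrays into 3 sets: 4 Mmp7-null arrays carried a Lys spike-in, 6 wild-type arrays a Trpn spike-in, and 6 arrays, 4 Mmp7-null and 2 wild-type, a Phe spike-in. Outside the Phe set, spike-in set and genotype cannot be told apart, and the labels do not say what the sets mark. Arrays 3 and 4 of the wild-type scratched group and array 1 of the Mmp7-null scratched group stood apart in earlier work on this table and are called the 3 doubtful arrays here. The calls named below on the leading probe sets of the 9 tested genes also held without them. The background was a log2 intensity of 2.77, the 95th percentile of control probe sets absent from an array, and the leading probe sets of all 10 genes lay above it.

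Dbp, the output gene from which the group was drawn up, was brightest in uninjured Mmp7-null cultures. Its log2 intensities there were 10.02, 9.998, 10.06 and 10.11. In scratched Mmp7-null cultures they were 9.12, 9.60, 9.38 and 9.37. Scratched wild-type cultures read 9.49, 9.91, 9.57 and 9.73, and uninjured wild-type cultures 9.49, 9.45, 9.43 and 9.26. In order of level, uninjured Mmp7-null cultures came first, apart from every other culture, and scratched wild-type cultures next. These overlapped scratched Mmp7-null cultures and lay only just above uninjured wild-type ones. Scratched Mmp7-null and uninjured wild-type cultures overlapped as well. The means were 9.37 ± 0.20 in scratched against 10.05 ± 0.05 in uninjured Mmp7-null cultures, and 9.67 ± 0.19 in scratched against 9.41 ± 0.10 in uninjured wild-type cultures (SD, n = 4 each).

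Scratched cultures thus lay 0.68 log2 units below uninjured ones in the Mmp7-null group and 0.27 above them in the wild-type group, a difference between responses of -0.95. Uninjured Mmp7-null cultures lay 0.64 above uninjured wild-type ones (1.56-fold). The second Dbp probe set, dimmer but above background, had the same order of group means at its top: 7.999 in uninjured Mmp7-null, 7.71 in scratched wild-type, 7.45 in scratched Mmp7-null and 7.37 in uninjured wild-type cultures. Within the Phe arrays alone, 2 Mmp7-null against 1 wild-type per state, the Dbp difference between genotypes was 0.60 in uninjured cultures and 0.00 in scratched ones. On those arrays scratched lay below uninjured by 0.60 in Mmp7-null cultures and differed by 0.00 in wild-type ones, so the difference between responses was -0.60.

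**Figure D1:**
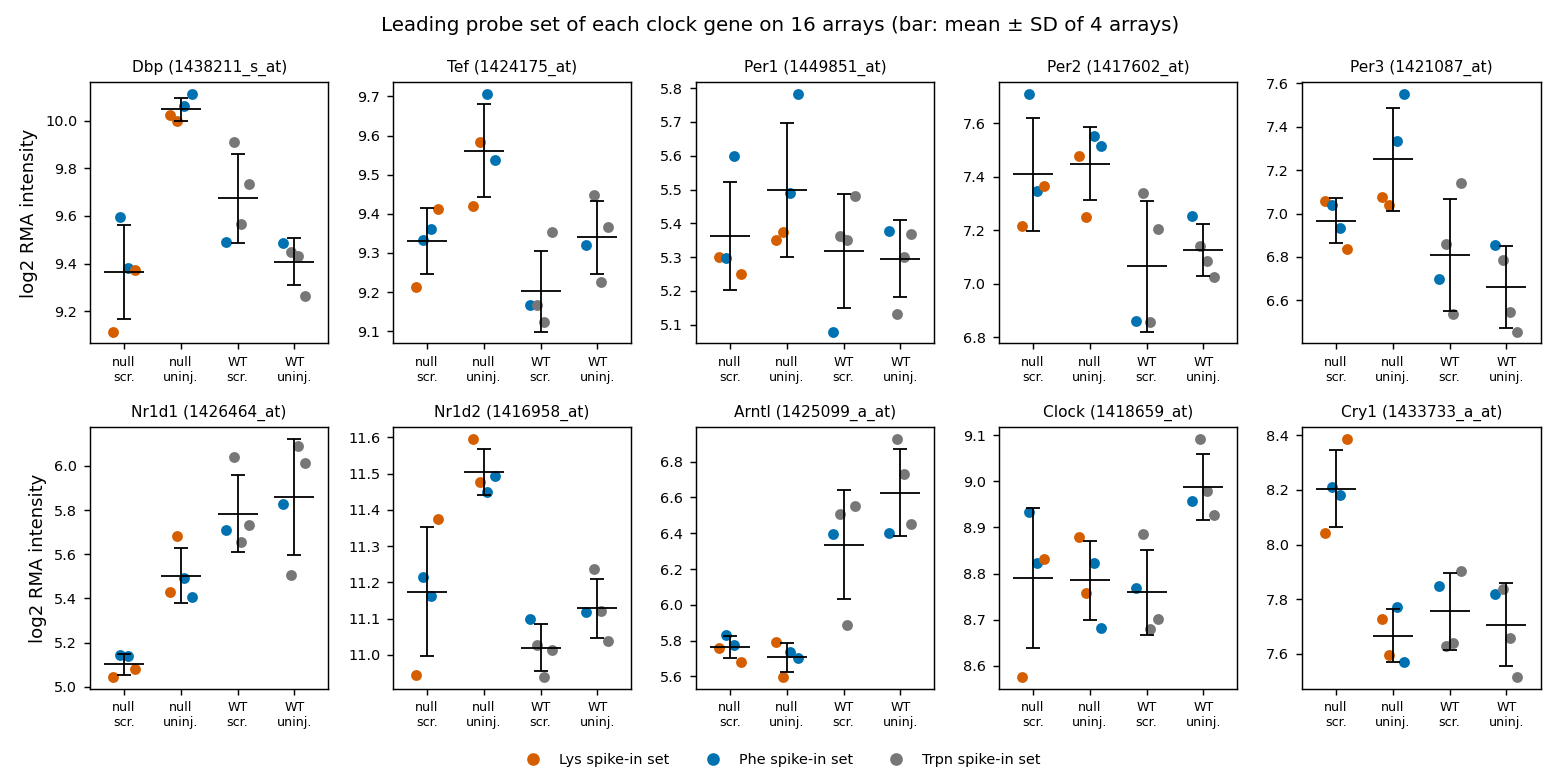
Log2 RMA intensity of the leading probe set of each of the 10 clock genes (vertical axis of each panel) in the 4 groups (horizontal axis). Points are the 4 cultures of a group, coloured by spike-in set, and bars are the mean ± SD. Dbp sits at 9.998 to 10.11 in uninjured Mmp7-null cultures, and the Arntl points of both Mmp7-null groups lie at 5.60 to 5.83, below every wild-type culture.

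In uninjured cultures, Mmp7-null cells had a higher level of Per3 and Nr1d2 and a lower level of Arntl. These were 3 of the 9 tested genes at an adjusted p under 0.05 (limma, Benjamini-Hochberg over all genes). In the same comparison 4.79% of all genes passed. The 9 were listed once Dbp, a gene of the same clock, had been seen to differ in these arrays. Over the arrays, Nr1d2 correlated with Dbp at 0.66, Per3 at 0.64 and Arntl at -0.29. The counts of the 9, here and below, are therefore not independent of that choice. At an unadjusted p under 0.05 there were 7 of 9. The share of all genes at that looser threshold is not given, here or for the unadjusted counts below. Those counts therefore stand without a background. The median log2 difference of the 9 was 0.20, against -0.01 over all genes.

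Arntl, the obligate partner of Clock, had log2 intensities of 5.79, 5.60, 5.74 and 5.71 in uninjured Mmp7-null cultures. The wild-type ones read 6.40, 6.92, 6.73 and 6.45. All Mmp7-null cultures were lower than any wild-type one. The difference was -0.92 (SE 0.14, limma adjusted p = 0.0017), a level 1.89-fold lower. Omitting any single array left its adjusted p between 4e-04 and 0.0077.

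Nr1d2, which encodes REV-ERBβ, a repressor that shares its targets with Nr1d1, read 11.59, 11.48, 11.45 and 11.49 in uninjured Mmp7-null cultures, against 11.12, 11.24, 11.12 and 11.04 in wild-type ones. The groups did not overlap, and Mmp7-null cultures were higher by 0.38 (SE 0.07, limma adjusted p = 0.0095). Averaging its 2 probe sets, of which the other is dim, gave 0.49 with an adjusted p of 0.22.

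Per3 encodes a period protein that is less essential to the core loop than its relatives. Its log2 intensities were 7.08, 7.04, 7.33 and 7.55 in uninjured Mmp7-null cultures and 6.86, 6.78, 6.55 and 6.46 in wild-type ones. The groups did not overlap, and the difference of 0.59 (SE 0.14, limma adjusted p = 0.026) was a 1.504-fold higher level. This call was lost without uninjured Mmp7-null array 3 or 4 or uninjured wild-type array 3 or 4, at adjusted p between 0.06 and 0.078, and in the fit with the replicate number as a block, at 0.052.

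Of the remaining 6, none passed in uninjured cultures. Tef, the close relative of Dbp, was at 9.42, 9.58, 9.71 and 9.54 in Mmp7-null cultures and 9.32, 9.45, 9.23 and 9.37 in wild-type ones. These overlapped at their edges, with a difference of 0.22 (limma adjusted p = 0.092). Clock, the partner of Arntl, read 8.88, 8.76, 8.82 and 8.68 in Mmp7-null cultures against 8.96, 9.09, 8.98 and 8.93 in wild-type ones. All Mmp7-null cultures were below all wild-type ones, at a difference of -0.20 (adjusted p = 0.15), and without the 3 doubtful arrays the adjusted p was 0.041. For Nr1d1 the difference was -0.36 (adjusted p = 0.11), for Per2 0.32 (0.19), for Per1 0.20 (0.44) and for Cry1 -0.04 (0.98).

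In scratched cultures, the genes that separated the genotypes were partly others. Nr1d1 and Arntl were lower and Cry1 was higher in Mmp7-null cultures, again 3 of 9, where 6.21% of all genes passed. At an unadjusted p under 0.05 there were 4 of 9, and the median over the 9 genes was 0.13, against -0.04 over all genes. By leading probe sets, Arntl alone passed in both states. Another probe set of Per2 and another of Per3 did so as well, as given below. A gene that passed in 1 state and not in the other is not thereby shown to differ between states; the test of that difference, given below, was passed by none of the 9.

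Nr1d1 encodes REV-ERBα, a repressor of Arntl. It read 5.05, 5.14, 5.14 and 5.08 in scratched Mmp7-null cultures, which differed little among themselves. Scratched wild-type cultures read 5.71, 6.04, 5.65 and 5.73, all of them higher. The difference was -0.68 (SE 0.11, limma adjusted p = 0.0028), a 1.60-fold lower level in Mmp7-null cultures. It passed under omission of any single array, at adjusted p up to 0.0096.

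Arntl read 5.76, 5.83, 5.78 and 5.68 in scratched Mmp7-null cultures. In scratched wild-type cultures it read 6.40, 6.51, 5.89 and 6.55. Wild-type array 3, one of the doubtful ones, came close to the Mmp7-null values but did not reach them. The difference was -0.57 (SE 0.14, limma adjusted p = 0.022), and without the 3 doubtful arrays it was -0.69 (0.017). The call was lost on omission of scratched Mmp7-null array 1 or 4, or of scratched wild-type array 1, 2 or 4, at adjusted p of 0.05 to 0.064.

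Cry1, the cryptochrome that gives the Per and Cry complex much of its repressive force, was at 8.04, 8.21, 8.18 and 8.39 in scratched Mmp7-null cultures. Scratched wild-type cultures had 7.85, 7.63, 7.64 and 7.90. No cultures overlapped, and Mmp7-null cultures were higher by 0.45 (SE 0.09, limma adjusted p = 0.0092), or 1.37-fold. Among those that did not pass were Per2 at 0.34 (adjusted p = 0.13), Nr1d2 at 0.15 (0.23), Tef at 0.13 (0.28), Per3 at 0.16 (0.44), Clock at 0.03 (0.78) and Per1 at 0.04 (0.80).

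**Figure D2:**
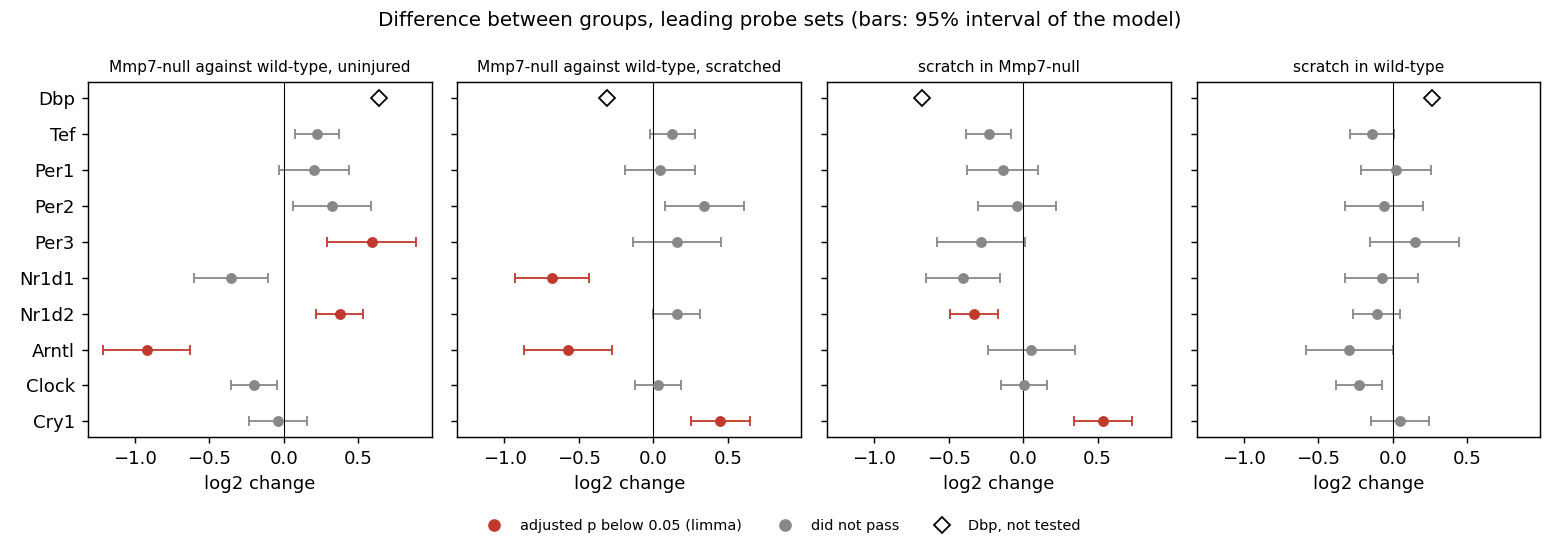
Log2 difference (horizontal axis) of each of the 10 genes (vertical axis) in the 2 comparisons of genotype and the 2 of scratching, with points for the estimates, bars for the 95% intervals of the limma fit, and red where the adjusted p was under 0.05. Dbp has no interval because it was not tested. Arntl lies at -0.92 in uninjured and -0.57 in scratched cultures for Mmp7-null against wild-type, and Cry1 at 0.54 for scratched against uninjured Mmp7-null cultures.

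The genotype differences have to be read beside the spike-in sets and the cell markers. With spike-in set as a block in the fit, 0 of 9 genes passed in either genotype comparison, while the signs held. In uninjured cultures Arntl was then -0.81 (limma adjusted p = 0.13), Per3 0.65 (0.21) and Nr1d2 0.33 (0.30). In scratched cultures Nr1d1 was -0.64 (0.10), Arntl -0.46 (0.38) and Cry1 0.34 (0.29). The count over all genes also dropped with this block, to 57 in uninjured and 252 in scratched cultures, against 872 and 1130 without it. Within the Phe arrays alone, 2 Mmp7-null and 1 wild-type in each state, the uninjured differences were -0.68 for Arntl, 0.58 for Per3 and 0.35 for Nr1d2. The scratched ones on those arrays were -0.57 for Nr1d1, -0.59 for Arntl and 0.35 for Cry1, and none passed. In fits of only the arrays compared, which leave fewer arrays to estimate the spread, Per3 in uninjured cultures (adjusted p = 0.06) and Arntl (0.092) and Cry1 (0.052) in scratched ones did not pass, nor did Arntl in scratched cultures with each array centred on its median (0.058).

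**Figure D3:**
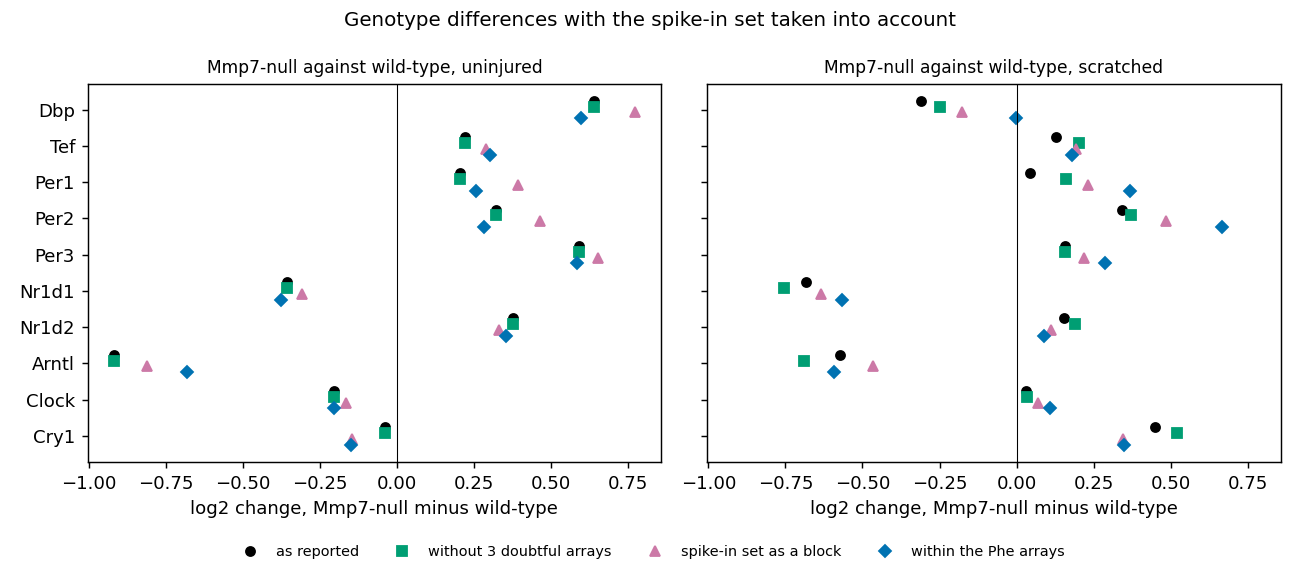
Mmp7-null minus wild-type log2 difference (horizontal axis) of the 10 genes (vertical axis) in uninjured and scratched cultures, from all 16 arrays, without the 3 doubtful arrays, with spike-in set as a block, and within the Phe arrays. Genes that passed over all arrays keep their sign in the other fits, and Arntl in uninjured cultures is at -0.92 over all arrays, -0.81 with the block and -0.68 within the Phe arrays.

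Markers of multiciliated cells also separated the genotypes. In both states, 5 of 6 measured passed as higher in Mmp7-null cultures, such as Foxj1, the regulator of the motile cilium program, by 0.52 in uninjured and 0.93 in scratched cultures. The summed linear intensity of the list was 15863 to 16972.5 in scratched Mmp7-null against 11779.8 to 13013.5 in scratched wild-type cultures. It was 14194.9 to 15522.6 in uninjured Mmp7-null against 11186.1 to 12556.3 in uninjured wild-type cultures. Tubb4b, the brightest marker of the list at a mean log2 intensity of 13.33, weighs most in these sums. It differed by 0.20 in uninjured and 0.22 in scratched cultures. Of 7 fibroblast and smooth muscle markers, Acta2 passed as higher in Mmp7-null cultures in both states, by 1.37 in uninjured and 1.10 in scratched ones. Of 5 basal markers, Krt5 was lower in uninjured (-0.36, limma adjusted p = 0.041) and Krt14 higher in scratched Mmp7-null cultures (0.53, 0.049). Of 5 epithelial markers, Cdh1 was lower in uninjured Mmp7-null cultures (-0.23, 0.014), and of 5 leukocyte markers, the macrophage marker Cd68 was lower in scratched ones (-0.92, 0.0012). No club and goblet marker passed between genotypes, and 0 of 3 endothelial markers were above background. The part of these markers in the differences of the clock genes was not tested. In such bulk samples, fewer cells of a type and less RNA per cell cannot be told apart.

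Scratching changed 2 of the 9 genes in Mmp7-null cultures, where 4.72% of all genes passed: Cry1 rose and Nr1d2 fell. At an unadjusted p under 0.05 there were 4 of 9, and the median was -0.14, against -0.02 over all genes. The largest of the tested changes was that of Cry1. Its log2 intensities in scratched Mmp7-null cultures, 8.04 to 8.39 as given above, lay above 7.73, 7.60, 7.77 and 7.57 in uninjured ones. All scratched cultures were higher, by 0.54 (SE 0.09, limma adjusted p = 0.0045), or 1.45-fold. No omission of a single array ended this call, the adjusted p staying at 0.0038 to 0.019, and it held with spike-in set as a block (0.54, adjusted p = 0.0088). Within the Lys arrays alone, 2 scratched and 2 uninjured, the Cry1 change was 0.55 (adjusted p = 0.10), and within the Phe arrays 0.53 (0.24).

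Nr1d2 read 10.95, 11.21, 11.16 and 11.38 in scratched Mmp7-null cultures, all below the uninjured ones, which began at 11.45. It fell by 0.33 on the log2 scale (SE 0.07, limma adjusted p = 0.021), and by 0.33 with spike-in set as a block (adjusted p = 0.041). Omitting uninjured Mmp7-null array 1 or scratched Mmp7-null array 3 raised its adjusted p to 0.065 or 0.054, and a fit of only the arrays compared gave 0.11. With the mean of its 2 probe sets the change was -0.46 (adjusted p = 0.24), on the Lys arrays alone -0.38 (0.18), and on the Phe arrays alone -0.28 (0.57). Its relative Nr1d1 was also lower in every scratched Mmp7-null culture than in the uninjured ones, which read 5.43, 5.68, 5.49 and 5.41, at -0.40 (adjusted p = 0.066). Tef had -0.23 (adjusted p = 0.078), with all scratched cultures, at 9.21, 9.33, 9.36 and 9.41, just below the uninjured ones. Per3 was at -0.28 (0.32), Per1 at -0.14 (0.64), Arntl at 0.05 (0.86), Per2 at -0.04 (0.88) and Clock at 0.01 (0.97). These are values of leading probe sets. The second probe set of Per2 was at 0.44, with all scratched cultures higher (limma p adjusted over all probe sets = 0.058).

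In wild-type cultures, 0 of the 9 genes passed for scratching in limma, where 4.85% of all genes did, and 1 had an unadjusted p under 0.05. That gene was Clock, with 8.77, 8.89, 8.68 and 8.70 in scratched against 8.96, 9.09, 8.98 and 8.93 in uninjured wild-type cultures. All scratched cultures were lower, by a difference of -0.23 (SE 0.07, limma adjusted p = 0.094). Arntl was at -0.29 (adjusted p = 0.31), Tef at -0.14 (0.35), Per3 at 0.15 (0.68) and Cry1 at 0.05 (0.88). The 95% interval for Cry1 in wild-type cultures was -0.15 to 0.24, against 0.34 to 0.73 in Mmp7-null ones. The median over the 9 genes was -0.08, against 0.01 over all genes.

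Scratching also moved cell markers. Of 7 club and goblet markers 1 passed, the mucin gene Muc5b, which rose by 2.64 in Mmp7-null (limma adjusted p = 0.0068) and 3.26 in wild-type cultures (0.00097). Of 5 basal cell markers, 1 fell in Mmp7-null and 2 fell in wild-type cultures, Krt5 in both, and 2 of 5 epithelial markers, Krt8 and Krt18, rose in each genotype. Acta2 rose by 1.07 (0.032) and Cd68 by 1.03 (0.00041) in wild-type cultures. The summed linear intensity of the basal list was 5350.39 to 6074.81 in scratched against 5620.73 to 6885.77 in uninjured Mmp7-null cultures, which overlap. Of 6 multiciliated markers, 1 rose and 1 fell in Mmp7-null cultures, and 1 fell in wild-type ones. The part of these markers in the changes of Cry1 and Nr1d2 was not tested.

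Whether the genotypes differed in their response to scratching was tested directly. None of the 9 genes passed in limma, where 0.132% of all genes did, and 3 had an unadjusted p under 0.05: Cry1, Clock and Per3. Cry1 had the smallest adjusted p, 0.23, for a difference of 0.49 (SE 0.13) between the response in Mmp7-null cultures and that in wild-type ones. For Clock the difference was 0.23 (adjusted p = 0.60) and for Per3 -0.43 (0.62). For Nr1d2 it was -0.22 (0.65), for Nr1d1 -0.33 (0.66) and for Arntl 0.35 (0.70). The 95% interval for Cry1 was 0.21 to 0.77 before adjustment and that for Arntl -0.07 to 0.76.

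The period genes were also read by several probe sets, which gave levels and differences of their own. Per3 had 4 above background, and in uninjured cultures all of them had higher means in Mmp7-null cultures. Besides the leading one, at 0.59, they differed by 1.02, 0.84 and 0.64, with limma p-values adjusted over all probe sets of 0.0022, 0.0024 and 0.11. In scratched cultures the same probe sets were at 0.72 (0.012), 0.43 (0.075) and 0.46 (0.23). The remaining pair had means of 2.75 and 2.05, at background. When all probe sets of the gene were averaged, Per3 differed by 0.29 in scratched cultures (limma adjusted p = 0.013).

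Per2, a core repressor, did not pass by its leading probe set, at 7.22, 7.71, 7.35 and 7.36 in scratched Mmp7-null cultures and 7.48, 7.25, 7.55 and 7.51 in uninjured Mmp7-null ones. The wild-type readings there were 6.86, 7.34, 6.86 and 7.20 in scratched and 7.25, 7.14, 7.09 and 7.03 in uninjured cultures. The second probe set read 6.72, 6.55, 6.95 and 6.79 in scratched and 6.26, 6.25, 6.53 and 6.22 in uninjured Mmp7-null cultures. In wild-type cultures it read 6.05, 6.16, 5.83 and 6.06 when scratched and 5.80, 5.93, 5.46 and 5.77 when uninjured. By this second probe set, Mmp7-null cultures did not overlap wild-type ones in either state. They were higher by 0.57 in uninjured cultures (limma p adjusted over all probe sets = 0.014) and by 0.73 in scratched ones (0.0026). When the probe sets of the gene were averaged, Per2 passed in both states, at an adjusted p of 0.011 in uninjured and 0.018 in scratched cultures.

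Clock had 4 probe sets above background, and none of them passed in any comparison of the reported fit over all arrays. After repeated quantile normalization the leading one passed for scratching in wild-type cultures (-0.21, limma adjusted p = 0.032). It also passed there for genotype in uninjured cultures (-0.20, 0.034). The dim other probe sets of Tef, at means of 4.22 and 4.05, did not pass either, nor did that of Nr1d2 at 4.62. Per1, Cry1 and Nr1d1 had 1 probe set each, and the second one of Arntl was at background, with a mean of 1.94. Per1, an immediate-early member of its family that responds to serum and glucocorticoids, passed in no comparison. Its log2 intensities ran from 5.25 to 5.60 in scratched Mmp7-null, 5.35 to 5.78 in uninjured Mmp7-null, 5.08 to 5.48 in scratched wild-type and 5.13 to 5.38 in uninjured wild-type cultures.

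**Figure D4:**
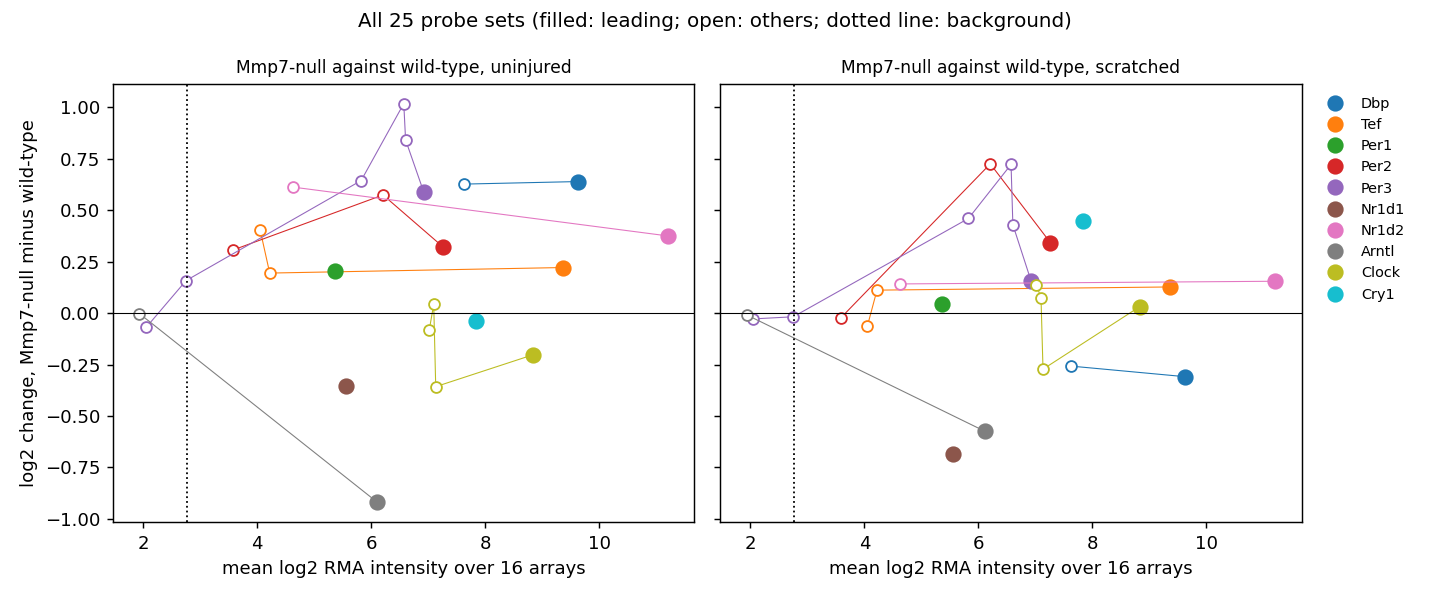
Mmp7-null minus wild-type log2 difference (vertical axis) of all 25 probe sets of the 10 genes against their mean log2 RMA intensity (horizontal axis), in uninjured and scratched cultures, with lines joining the probe sets of a gene. The 4 Per3 probe sets above the background line lie between 0.59 and 1.02 in uninjured cultures, and the 2 brighter ones of Per2 at 0.32 and 0.57.

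Of 21 other components listed, such as Npas2, Hlf, Nfil3 and Bhlhe40, 19 were measured and 17 lay above background. None passed in limma in any of the 5 comparisons. Npas2, which can stand in for Clock, was at -0.81 in uninjured cultures for Mmp7-null against wild-type (limma adjusted p = 0.078), with all Mmp7-null cultures lower. Arntl2, the paralogue of Arntl, was at 0.49 in the same comparison (0.091), opposite in sign to Arntl. Without the 3 doubtful arrays, 3 of the 19 passed in that comparison.

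Among 5 outputs of the clock, Noct, a gene with a strong daily rhythm in liver, rose with scratching in both genotypes. The changes were 0.45 in Mmp7-null (limma adjusted p = 0.0027) and 0.57 in wild-type cultures (0.00022). Wee1, a cell cycle kinase under E-box control, rose by 0.37 in wild-type cultures (limma adjusted p = 0.033). No output passed between genotypes.

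Of 6 genes known as targets of Dbp and its relatives in mouse liver, 4 were measured and 2 lay above background. Cyp2b10, a xenobiotic oxidase, was lower in Mmp7-null than in wild-type cultures, by -0.57 when uninjured (limma adjusted p = 0.0018) and -0.76 when scratched (0.00022). With spike-in set as a block, none of the 4 passed in uninjured cultures. Alas1, the first enzyme of heme synthesis, fell by 0.30 with scratching in Mmp7-null cultures (adjusted p = 0.016).

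Glucocorticoids reset peripheral clocks and induce Per1, so 10 genes they induce were set beside the clock genes. With scratching, 4 rose and 1 fell in Mmp7-null cultures, where 4.72% of all genes passed. In wild-type cultures 5 rose, where 4.85% of all genes passed. Not all of the list moved that way. In wild-type cultures Tsc22d3 was at -0.65 (limma adjusted p = 0.086), with all scratched cultures lower, and Fkbp5 at -0.20 (0.26). Zbtb16 was at background. Mt2, a metallothionein, rose by 0.91 in Mmp7-null (limma adjusted p = 0.00088) and 1.29 in wild-type cultures (2.6e-05). Dusp1, a phosphatase that turns off MAP kinases, rose by 0.45 (0.04) in Mmp7-null and 0.93 (0.00025) in wild-type cultures. The gene that fell was Klf9, a glucocorticoid-induced factor, at -0.28 (0.017) in Mmp7-null cultures. Between genotypes, 3 were higher and 1 lower in uninjured Mmp7-null cultures, where 4.79% of all genes passed. In scratched ones 1 was higher and 3 were lower, where 6.21% of all genes passed. With spike-in set as a block, 0 passed in uninjured and 2 in scratched cultures.

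Over the 16 arrays, the gene most like Dbp among 12561 others above background was Sdhaf4, an assembly factor of succinate dehydrogenase, with a Pearson correlation of 0.89. Next came Zkscan14 at 0.80 and Lrrc57, Cgrrf1 and 2700049A03Rik at 0.79 each. The most opposite were Slc7a1, a cationic amino acid transporter, at -0.85, Mex3b at -0.78, Rexo1 at -0.77, Rhbdf2 at -0.76 and P4ha1 at -0.73. These values are descriptions, since the arrays fall into groups that share treatment and processing. With group means removed, Sdhaf4 was at 0.37 and Slc7a1 at -0.44. Without the 2 arrays farthest from the median of Dbp, uninjured Mmp7-null 3 and 4, these 2 genes were at 0.84 and -0.83.

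The clock genes themselves spread widely on this scale. Nr1d2 correlated with Dbp at 0.66 (rank 107 of 12561) and Per3 at 0.64 (rank 141), followed by Tef at 0.54, Per2 at 0.48 and Per1 at 0.47. Nr1d1 was at 0.14, Clock at -0.10, Arntl at -0.29 and Cry1 at -0.44. Within groups the order was another: Per2 was at 0.90 and Clock at 0.67, whereas Nr1d2 was at 0.41 and Per3 at 0.43.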

How the data were processed

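RNA of 16 cultures was hybridised to 1 Affymetrix array each. The deposited table holds linear intensity values per probe set, which the authors made with RMA per the submitters' processing notes; the version is not given in the sources used here. It lists 45101 probe sets, a number that goes with a larger array than the 430A 2.0 named in the labels. Intensities were converted to log2 with no further normalization and no filter on dim genes. Of 45037 probe sets other than controls, 34945 carried 1 symbol; each of the 18193 genes was represented by the one with the highest mean. All 16 arrays entered 1 linear model with 4 group means (R 4.3.3, limma 3.58.1, lmFit and eBayes, 12 residual degrees of freedom), with Benjamini-Hochberg adjustment over all genes and a threshold of 0.05. The 5 comparisons were genotype in each state, scratching in each genotype, and the difference between scratch responses. The model was tested on simulated data. The number of arrays limits the precision. The genes described and the related lists were chosen with earlier results of these data known. Named genes were the 10 clock genes, related genes that passed, and the 5 most and 5 least like Dbp. Alternatives were the replicate number or spike-in set as a block, and differences within a set with the spread from all 16 arrays. Further ones were other probe set rules, dim genes removed, array weights, trended variance, other scalings and omission of arrays.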

Additional observations from a re-analysis of the deposited data

Results flagged for a closer look

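Of 40 groups of 4 cultures examined, 10 genes in 4 groups each, 1 held a culture far from the others. Per1 in scratched Mmp7-null array 3 had a log2 intensity of 5.60, against 5.25 to 5.30 in the other 3 arrays of that group, a gap that was 0.854 of the group's whole range. Chance flags about 1 in 20 groups.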

How the results depend on the processing

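Over the alternatives other than omission of single arrays, 590 of 610 log2 differences of the 10 genes kept their sign, and of the 549 that belong to the 9 tested genes 513 kept their side of the threshold. Among the 9 tested genes, the count for scratching in wild-type cultures was 1 in place of 0 with repeated quantile normalization. For scratching in Mmp7-null cultures it was 1 in place of 2 with the mean of probe sets per gene, and 0 within the Lys or the Phe arrays. For genotype in uninjured cultures it was 5 in place of 3 with array weights or repeated quantile normalization, and 0 with spike-in set as a block or within the Phe arrays. For genotype in scratched cultures it was 1 in place of 3 with only the arrays compared, 5 with the mean of probe sets, and 0 with spike-in set as a block or within the Phe arrays. The causes were not tested, though the fits within a set hold fewer arrays.

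Over all genes, scratching in wild-type cultures gave 883 calls as reported, 1405 with array weights, 204 within the Phe and 418 within the Trpn arrays. Scratching in Mmp7-null cultures gave 859, and 402 with only the arrays compared, 286 within the Lys and 79 within the Phe arrays. Genotype in uninjured cultures gave 872, and 57 with spike-in set as a block, 42 within the Phe arrays and 1310 without the 3 doubtful arrays. Genotype in scratched cultures gave 1130, and 527 with only the arrays compared, 1745 with array weights, 252 with the spike-in block and 223 within the Phe arrays. The difference between scratch responses gave 24, and 14 with the replicate block, 37 with the dimmest 40% of genes removed, 100 with array weights, 5 with arrays centred on the median, 49 with repeated quantile normalization and 50 without the doubtful arrays.

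For uninjured genotype, other clock components passed in 3 cases without the doubtful arrays, against 0 as reported, and with the spike-in block the Dbp-family targets passed in 0, against 1, and the glucocorticoid-induced genes in 0, against 4. The glucocorticoid list had 2 in scratched genotype with that block, against 4, and 2 in the difference between responses without the doubtful arrays, against 0.

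Omission of single arrays gave 0 to 1 of the 9 genes for scratching in wild-type, 1 to 3 in Mmp7-null cultures, 2 to 4 for uninjured and 2 to 3 for scratched genotype, and 0 for the difference. Over all genes the ranges were 591 to 1125, 516 to 943, 480 to 1049, 809 to 1135 and 8 to 28. The lowest of these came without uninjured Mmp7-null array 2 (516) or 3 (528) for scratching in Mmp7-null cultures, and without uninjured Mmp7-null array 1 (480) or uninjured wild-type array 1 (534) for uninjured genotype. The difference between responses gave 8 to 15 without scratched Mmp7-null array 3 or 4, uninjured Mmp7-null array 3, uninjured wild-type array 1 or scratched wild-type array 1 or 2. Calls gained were Clock for scratching in wild-type (adjusted p = 0.028 in limma) and Nr1d2 for scratched genotype (0.043) without scratched Mmp7-null array 1. Without uninjured wild-type array 2, Nr1d1 gained uninjured genotype (0.015) and scratching in Mmp7-null cultures (0.021), and without uninjured Mmp7-null array 1 Tef gained the last (0.047). Replicate numbers are shared between groups, and same-numbered arrays correlated in their deviations between -0.22 and 0.32. Such values, from deviations around means of 4 cultures, cannot decide whether the numbers pair the cultures. With the replicate block, 2 of the 9 genes passed in uninjured genotype, Per3 being lost at a limma adjusted p of 0.052. The other counts of the 9 were as reported.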
